A study of Mus musculus with 7 samples.

Results

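Adipokines are hormones and factors that fat cells secrete, and 9 of their genes were followed in whole mammary glands of oncogene-carrying PyV-MT mice fed chow with or without conjugated linoleic acid (CLA). The set was chosen by gene symbol: Adipoq, Lep, Retn, Cfd, Nampt, Rbp4, Apln, Rarres2 and Agt. On the array, 12 of 45101 probe sets carried exactly 1 of these symbols, and they covered 8 of the 9 genes, out of 18193 genes with such a probe set. Cfd, the gene of adipsin, was not analysed here, because the platform table used here pairs no probe set with that symbol alone.

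The mammary gland of the mouse is a tree of epithelial ducts embedded in a fat pad, so the fat pad contributes a large part of the RNA of a whole gland. White adipocytes release adiponectin (Adipoq), which raises insulin sensitivity, leptin (Lep), which reports fat stores to the brain, and resistin (Retn), which in mice opposes insulin action. The other members are made by adipocytes and by further cell types as well. They are a retinol carrier (Rbp4), an enzyme of NAD synthesis that is also secreted (Nampt), a peptide ligand of a vascular receptor (Apln), a chemoattractant (Rarres2, chemerin) and the precursor of angiotensin (Agt).

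All groups were virgin female mice of the strain FVB/PyV-Mt, which carry the polyoma virus middle T oncogene, and all were 8 weeks old when mammary glands were taken. The control group (3 arrays) had eaten control chow and the CLA group (4 arrays) chow with 1% CLA, both for 4 weeks. The study placed 5 and 6 mice on these diets. The source labels name a mouse for each array, so each array was taken as 1 animal. No label states which promoter drives the transgene. No gland without the oncogene was compared, so every difference is between diets in oncogene-carrying glands. Of 15 luminal epithelial markers 13 had a probe set and passed the filter, and Krt8 signals ran from 15379 to 19240. The luminal score, the mean over the list of log2 signal minus each gene's mean over the 7 arrays, lay between -0.09 and 0.12 on every array, while single markers varied more, Krt19 from 2803 to 6898. The adipocyte marker Fabp4 had signals from 8171 to 31236.

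Values are MAS5 signal intensities, which have no fixed unit, scaled to a trimmed mean of 500.003 on every array. Across genes, any pair of arrays had a Pearson correlation of 0.919 to 0.972. For Actb, signal at the 3′ end exceeded that at the 5′ end by 2.78-fold on CLA replicate 3 and by 1.41-fold to 1.88-fold elsewhere, and a high ratio can mark degraded RNA. Control replicate 1 and CLA replicate 1 have title numbers that start with 27 and the other 2 control and 3 CLA arrays numbers that start with 28. Precision is limited by how few arrays there are. CLA replicate 4 stood apart from the other CLA arrays in fat transcripts. Its white adipocyte score was 0.25. CLA replicates 1 to 3 scored -0.93 to -0.58, and control arrays 0.48 to 0.76. The summed signal of the 17 white adipocyte markers with a probe set ran from 93532 to 116898 on control and from 41267 to 85163 on CLA arrays, and 16 of them were bright enough to be tested.

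The promoter sequences of the 4 members with the largest diet differences, Retn, Rbp4, Adipoq and Lep, are shown with that of Nampt, whose signal differed by a small amount. They are the 250 bases before the annotated transcription start, 5′ to 3′ on the gene's strand, from RefSeq in build GRCm38.p6. Capitals mark matches, on either strand, to motifs of 3 kinds. The TATA box was searched as TATAA and the box named for its letters as CCAAT. Sites of C/EBP type, named for a transcription factor family of fat cells, were searched as TTNNGNAA. The TATA matches of Lep on both strands overlap.
Adipoq, chr16:23146286-23146535, plus strand: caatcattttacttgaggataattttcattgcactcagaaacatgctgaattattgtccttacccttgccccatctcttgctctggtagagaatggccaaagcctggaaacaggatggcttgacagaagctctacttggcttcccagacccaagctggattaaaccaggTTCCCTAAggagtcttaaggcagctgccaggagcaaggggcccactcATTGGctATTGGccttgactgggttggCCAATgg
Lep, chr6:29059971-29060220, plus strand: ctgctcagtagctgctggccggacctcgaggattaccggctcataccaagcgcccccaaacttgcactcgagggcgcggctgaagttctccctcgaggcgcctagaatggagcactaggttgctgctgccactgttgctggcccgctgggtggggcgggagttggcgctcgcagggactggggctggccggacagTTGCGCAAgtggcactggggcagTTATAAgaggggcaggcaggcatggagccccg
Retn, chr8:3655520-3655769, plus strand: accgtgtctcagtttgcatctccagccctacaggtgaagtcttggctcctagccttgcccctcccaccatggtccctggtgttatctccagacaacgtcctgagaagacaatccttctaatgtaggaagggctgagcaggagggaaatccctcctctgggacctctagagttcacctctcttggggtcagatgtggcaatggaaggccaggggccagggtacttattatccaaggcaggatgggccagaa
Rbp4, chr19:38124812-38125061, minus strand: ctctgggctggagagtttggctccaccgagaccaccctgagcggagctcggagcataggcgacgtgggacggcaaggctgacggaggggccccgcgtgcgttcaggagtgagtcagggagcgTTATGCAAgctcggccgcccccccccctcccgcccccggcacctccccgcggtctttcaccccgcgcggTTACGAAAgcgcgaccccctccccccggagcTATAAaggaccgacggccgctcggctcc
Nampt, chr12:32820085-32820334, plus strand: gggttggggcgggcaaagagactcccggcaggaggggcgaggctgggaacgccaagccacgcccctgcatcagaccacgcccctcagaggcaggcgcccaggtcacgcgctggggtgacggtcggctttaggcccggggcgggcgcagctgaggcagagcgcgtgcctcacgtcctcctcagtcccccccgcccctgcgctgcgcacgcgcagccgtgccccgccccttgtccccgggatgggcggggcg

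RefSeq holds promoter entries for 8 of the 9 members. Rarres2 has none in the table used. The Lep window held 1 C/EBP match, ttgcgcaa, 55 to 48 bases before the start, and TATA matches 32 to 27 bases before it. Adipoq had 3 CCAAT matches within its last 34 bases and 1 C/EBP match, ttccctaa, 81 to 74 bases before the start. The Rbp4 window shown, that of the downstream one of its 2 annotated starts, had 2 C/EBP matches and a TATA match 28 to 24 bases before the start. That of the other start had 1 CCAAT and 1 C/EBP match. The Retn window had none of the 3 motifs, and neither had that of Nampt, in which 75.6% of bases were G or C and which had 5 matches to the GC box (GGGCGG). The GC box also had 1 match in the Lep window and 2 in the Rbp4 window shown. Among all 32851 promoter windows of this length, 36.8% held a C/EBP match, 33.8% a CCAAT match, 22.8% a TATA match and 32.7% a GC box, and the median GC content was 52.4%. The half-site of PPAR receptors (AGGTCA) was in the Nampt window alone of the 5 shown, and in 14.0% of all windows. None of these motifs was in the windows of all 4 members with the largest differences. The E box (CANNTG), searched as well, was in the Adipoq, Lep, Retn and Nampt windows but not in the Rbp4 window shown. That of the other Rbp4 start had 1 E box match, and 66.2% of all windows held one.

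The comparison of diets asked whether adipokine transcripts differed between CLA and control glands. Signals of Adipoq, Rbp4 and Retn were 3.52-fold to 4.11-fold lower in CLA glands. Lep, which was under the filter signal on 3 of the 4 CLA arrays, had a log2 change of -1.63, or -0.87 with 64 added to each signal. The signals of Nampt, Apln, Rarres2 and Agt were 1.04-fold to 1.25-fold lower. Retn was the only member whose 4 CLA arrays all lay below the 3 control arrays. All 8 changes were negative, where 44.7% of all genes tested had a negative change. Of the 8 members 0 passed limma's threshold of an adjusted p of 0.05, where 0% of the 12497 genes tested did. At an unadjusted p under 0.05, 4 of 8 members were lower and 0 higher, where 3.01% of all genes were lower and 2.38% higher, 5.39% in all. Lep, 1 of the 4, reached the filter signal of 57.7 only through its control arrays, with a mean signal of 161 there and 55.8 on CLA arrays. Its place in these counts is thus not independent of the filter. The median log2 change of the 8 was -0.98, beside 0.03 over all genes tested. The array reads bulk tissue, so fewer fat cells and less RNA per fat cell cannot be told apart.

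**Figure D1:**
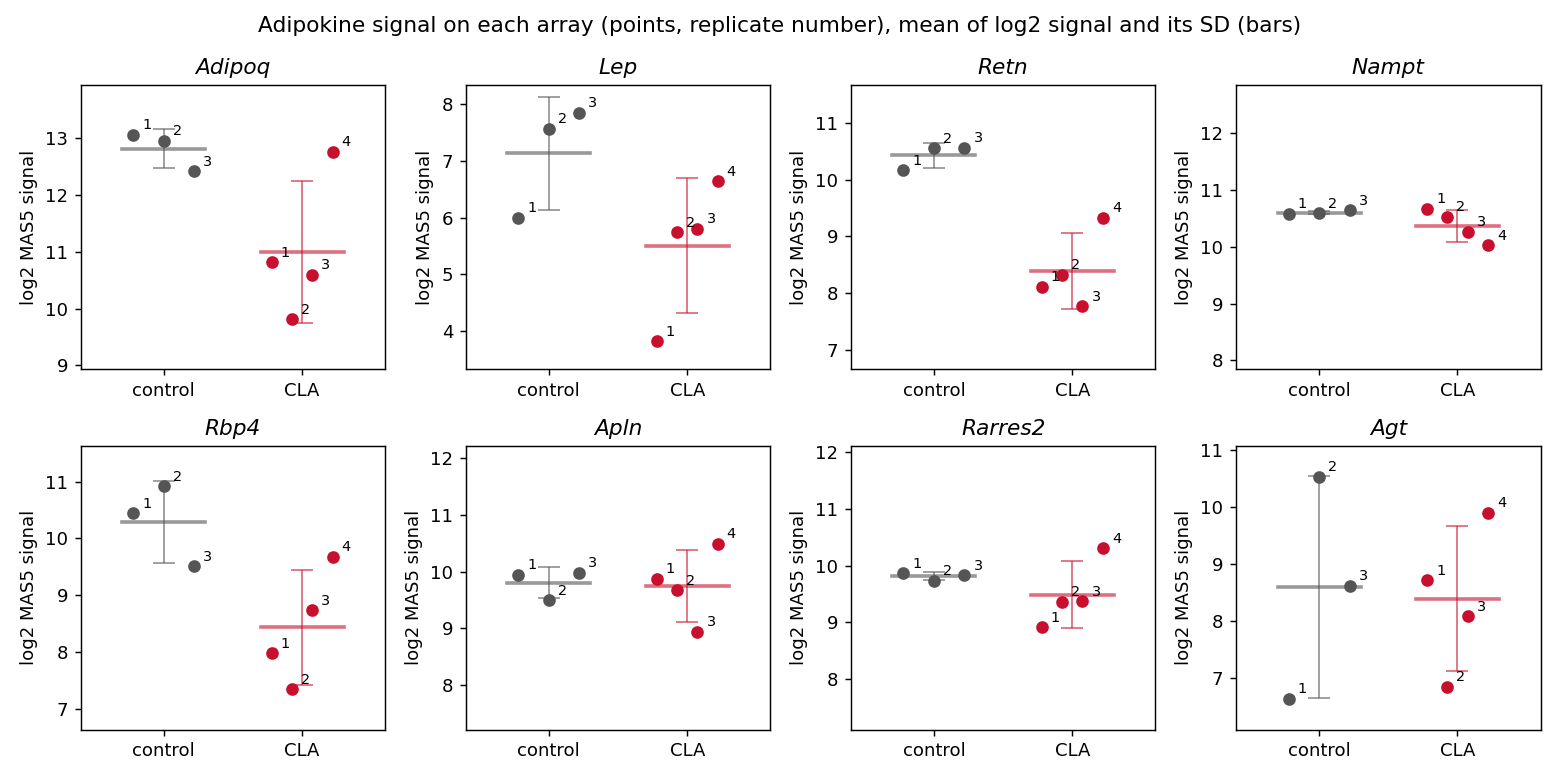
log2 MAS5 signal (vertical axis, 5 log2 units in each panel) of 8 adipokine genes on 3 control and 4 CLA arrays. Points are arrays with their replicate number, the thick line is the group mean of log2 signal and the bars are 1 SD. The Retn groups are separate, and for Adipoq CLA replicate 4 lies among the control arrays.

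Resistin, encoded by Retn, had signals of 1150, 1504 and 1510 on control replicates 1 to 3. On CLA replicates 1 to 4 they were 277, 321, 219 and 645. All 4 CLA arrays were below all 3 control arrays, and the highest of them was CLA replicate 4. Groups separated in this direction for 1 of 8 members and 2.67% of all genes tested, and in the other direction for 0 members and 2.64%. The log2 change was -2.04 ± 0.33 (SE; 95% interval from -2.78 to -1.31), a 4.11-fold lower level. Its unadjusted limma p of 0.00012 ranked 4 among all genes, and the limma adjusted p was 0.294. When CLA replicate 4 was left out, Retn passed at -2.36, with a limma adjusted p of 0.0124. Over all alternatives the limma adjusted p ran from 0.0124 to 1.00. Within title numbers starting with 27 Retn differed by -2.05 log2 units between 1 array of each diet, and within those starting with 28 it was -2.08.

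Adiponectin, encoded by Adipoq, had signals of 8542, 7924 and 5486 on the control arrays. The CLA arrays gave 1807, 901, 1547 and 6936. CLA replicates 1 to 3 were below every control array, while CLA replicate 4 lay inside the control range, so the groups overlapped. The log2 change was -1.81 ± 0.56 (SE; 95% interval from -3.07 to -0.56), or 3.52-fold lower, and did not pass (limma adjusted p of 0.703, unadjusted 0.00942). When CLA replicate 4 was left out it was -2.40 and passed, with a limma adjusted p of 0.0238. Over the alternatives the adjusted p ran from 0.0238 to 1.00. The SD of log2 signal was 1.25 over 4 CLA arrays and 0.34 over 3 control arrays.

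Leptin, encoded by Lep, was dim. Its signals were 63.96, 189 and 230 on control and 14.2, 53.7, 55.8 and 99.5 on CLA arrays. On 3 CLA arrays they lay under 57.7, the mean level that a gene had to reach to be tested. Lep reached that level only through its control arrays. The lowest control array and the lowest CLA array were those with title numbers starting with 27, and CLA replicate 4 was above control replicate 1. The log2 change was -1.63 ± 0.67 (SE; 95% interval from -3.14 to -0.13). It did not pass, at a limma adjusted p of 0.878 (0.0364 unadjusted). Its size depended on the low values. With 64 added to every signal before the logarithm it was -0.87, and without CLA replicate 1 it was -1.07.

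Rbp4 encodes retinol binding protein 4, which carries vitamin A in blood and is secreted by liver and fat. Control signals were 1391, 1941 and 728, and CLA signals were 252, 162, 425 and 817. Of the CLA arrays only replicate 4 exceeded the lowest control array, replicate 3. The difference was -1.86 ± 0.52 (SE; 95% interval from -3.02 to -0.70), or 3.63-fold lower, with a limma p of 0.00528 and an adjusted p of 0.688. It ran from -2.27 to -1.50 with 1 array left out at a time. Within title numbers starting with 27 it was -2.46 and within those starting with 28 it was -1.63.

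Nampt makes nicotinamide mononucleotide, a precursor of NAD. Its brightest probe set, 1417190_at, read 1535, 1540 and 1597 on control and 1628, 1478, 1231 and 1048 on CLA arrays. The control arrays were close to each other, and the CLA arrays lay on either side of them. On the log2 scale the difference was -0.23 ± 0.17 (SE; 95% interval from -0.61 to 0.15; limma adjusted p = 0.952). The probe set 1455320_at gave -0.23 and 1448607_at, a dimmer one with signals from 63.9 to 188, gave 0.25, so the probe sets disagreed in sign.

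Rarres2 encodes chemerin, which attracts immune cells and acts on adipocytes. Its brightest probe set, 1437902_s_at, read 937, 851 and 909 on control and 483, 660, 663 and 1269 on CLA arrays. CLA replicates 1 to 3 were below the control arrays and CLA replicate 4 above them. The change in log2 signal was -0.32 ± 0.28 (SE; 95% interval from -0.96 to 0.32; limma adjusted p = 0.974), and it ran from -0.59 without CLA replicate 4 to -0.13 without CLA replicate 1. Within title numbers starting with 27 Rarres2 differed by -0.956, and within those starting with 28 by -0.098. The probe set 1428538_s_at showed the same order of CLA arrays at its ends, from 532 on replicate 1 to 1433 on replicate 4, with a change of -0.20. Names with s_at mark probe sets that can match more than 1 transcript. The third, 1425091_at, was below the filter signal on all 7 arrays.

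Apln encodes apelin, a peptide that acts on vessels and heart. Signals were 984, 723 and 1008 on control and 941, 814, 493 and 1438 on CLA arrays. The CLA arrays spanned the control range on both sides. Their log2 change was -0.06 ± 0.32 (SE; 95% interval from -0.77 to 0.65; limma adjusted p = 0.999). Its sign turned with median centring (0.020), and it was 0.21 without CLA replicate 3.

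Agt encodes angiotensinogen, the precursor that renin cuts. It varied most within groups, at 99.1, 1483 and 393 on control and 421, 115, 270 and 956 on CLA arrays. The control arrays spanned 15.0-fold and the CLA arrays 8.34-fold. Between diets the log2 change was -0.21 ± 0.89 (SE; 95% interval from -2.20 to 1.78; limma adjusted p = 0.997). Within title numbers starting with 27 it was 2.09 and within those starting with 28 it was -1.30, so its direction differed between the sets.

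**Figure D2:**
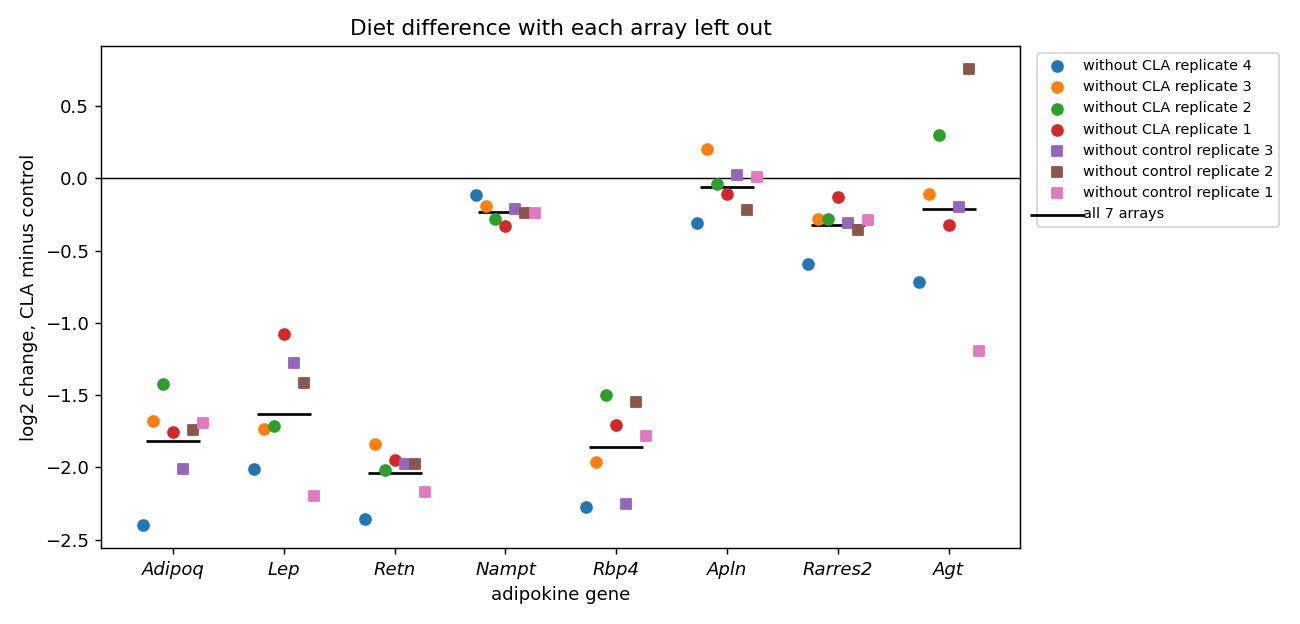
log2 change (CLA minus control, vertical axis) of each adipokine gene with all 7 arrays (black line) and with each array left out (circles, a CLA array; squares, a control array). Retn, Rbp4, Adipoq and Lep stay below 0 with every array left out, and Apln and Agt take both signs.

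Some members had similar profiles over the 7 arrays. Profiles were compared by the root mean square difference between log2 signals, each gene centred on its mean over the 7 arrays, as a description. Adipoq and Rbp4 differed by 0.42, Adipoq and Retn by 0.61, and Lep and Retn by 0.79, beside SDs over the arrays of 1.33 for Adipoq, 1.29 for Rbp4, 1.20 for Retn and 1.34 for Lep. Apln and Rarres2 differed by 0.41, which is close to their own SDs of 0.48 and 0.45, so their profiles were only loosely alike.

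Among all genes tested, those with profiles closest to Adipoq were Cdo1, a cysteine dioxygenase, at 0.22, Cidec, a protein of lipid droplets, at 0.29, and Klb, a co-receptor of FGF hormones, at 0.31. For Rbp4 they were Ces1d, a carboxylesterase of fat and liver, at 0.29, Cidec at 0.30 and Art3 at 0.32. For Retn they were Orm1, an acute phase protein, at 0.32, Gm12863 at 0.37 and Trarg1, a regulator of glucose transporter traffic in adipocytes, at 0.39. For Lep they were Cd300lg at 0.50, the carbonic anhydrase gene Car4 at 0.51 and Npr3, a clearance receptor of natriuretic peptides, at 0.52. The closest gene to Lep was thus farther from it than the closest to Adipoq, Rbp4 or Retn. The nearest to Agt, St6galnac2, Klk1b11 and Gjb1, were at 0.45, 0.47 and 0.59. Nampt was closest to Krt42 (0.06), Pik3cg (0.06) and Zfp623 (0.07), Apln to Gulp1 (0.11), Ggcx (0.12) and Tnfrsf22 (0.14), and Rarres2 to Hmga2-ps1 (0.12), Ncaph2 (0.14) and Ankrd33b (0.14). Nampt, Apln and Rarres2 varied less over the arrays, with SDs of 0.24, 0.48 and 0.45. Their small distances thus do not mark a closer likeness than those above.

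**Figure D3:**
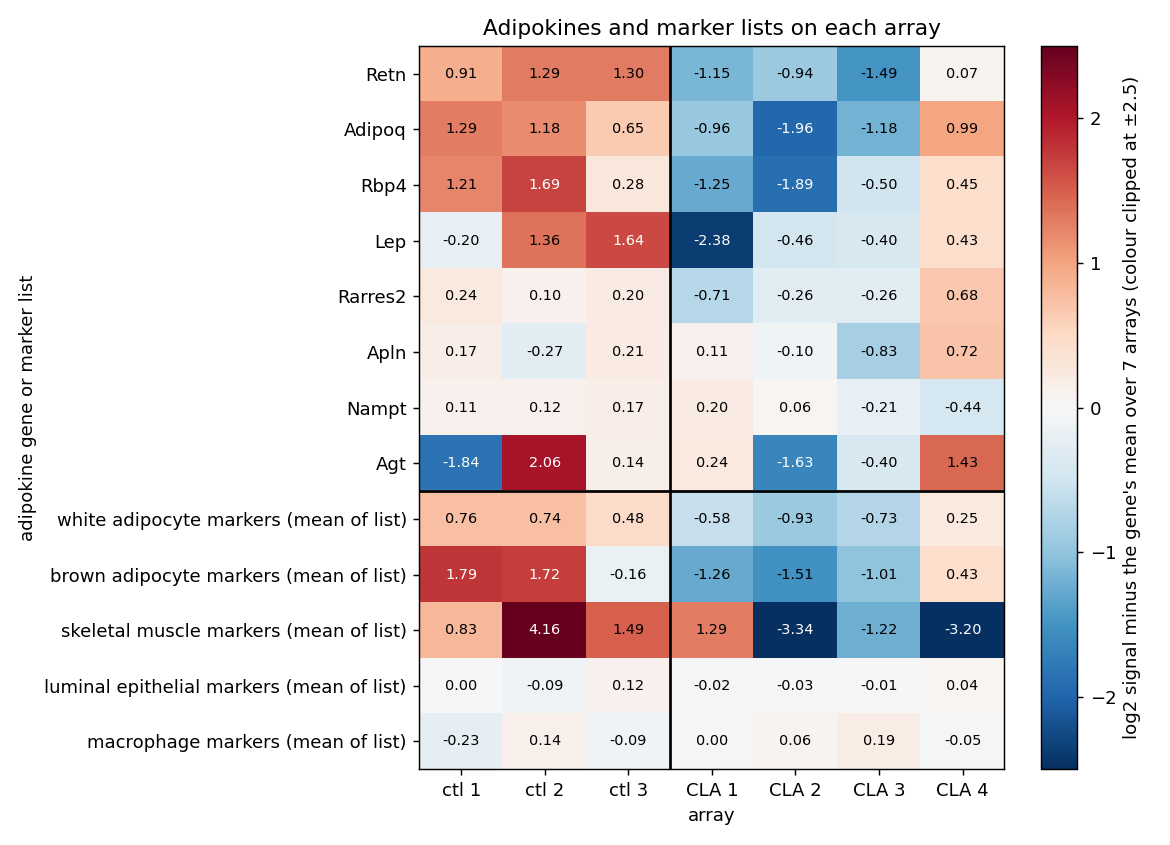
log2 signal minus the mean over the 7 arrays (colour and number) of 8 adipokine genes, above the mean of the same quantity over 5 marker lists, on each array. Retn, Adipoq and Rbp4 are high on the control arrays and low on CLA replicates 1 to 3, with CLA replicate 4 between 0.07 and 0.99. The white adipocyte list is likewise high on control arrays and low on CLA replicates 1 to 3. Its value on CLA replicate 4 is below every control array, while those of Adipoq and Rbp4 are above control replicate 3.

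Markers of other cells moved with the diets beside these genes. The skeletal muscle score was 0.83, 4.16 and 1.49 on control and 1.29, -3.34, -1.22 and -3.20 on CLA arrays. All 17 tested muscle markers had lower signal in CLA glands, where 44.7% of all genes tested had a negative change. Of these markers Myh2, Tnnt3, Ryr1, Myh1 and Casq1 reached the filter signal of 57.7 only through their control arrays. Their place in this count is thus not independent of the filter. CLA replicate 1 lay within the control range for muscle, and there Retn, Adipoq, Rbp4 and Lep had 277, 1807, 252 and 14.2, each below every control array. CLA replicate 4, low in muscle, had the highest Retn, Adipoq, Rbp4 and Lep of the CLA arrays. CLA replicate 2, also low in muscle at -3.34, had 321, 901, 162 and 53.7 for these genes. Its Adipoq and Rbp4 signals were the lowest of the CLA arrays. After adding the muscle score to the fit, the log2 changes of Retn, Adipoq, Rbp4 and Lep were -2.40, -2.04, -1.80 and -2.58, with limma adjusted p of 1.00. The muscle score itself differed between the diets, so this fit cannot separate muscle from diet. The values of CLA replicates 1, 2 and 4 are those of single arrays, and the part of muscle in the adipokine result was not tested. The brown adipocyte score was 1.79, 1.72 and -0.16 on control and from -1.51 to 0.43 on CLA arrays, and its part in the result was not tested. Basal epithelial markers had a score of -0.87 to 0.05 on control and -0.12 to 0.37 on CLA arrays, and a summed signal of 5461 to 8767 and of 8722 to 11282. Of 10 tested, 3 were higher at an unadjusted limma p under 0.05 (2.38% of all genes), the keratin genes Krt17 (1.67), Krt5 (1.24) and Krt14 (1.40). The groups of Krt17 and Krt5 were separate, higher in CLA glands, as for 2.64% of all genes. A negative change was found for 4 of the 10 (44.7% of all genes), Myh11 (-0.59), Oxtr (-0.09), Acta2 (-0.04) and Mylk (-0.02). The part of basal markers in the adipokine result was not tested. Fibroblast markers, with 10 of 10 tested and 1 negative, had a median change of 0.18. Macrophage markers, with 10 of 10 tested and 2 negative, had one of 0.19. Of all genes tested 44.7% had a negative change. Cd14 (-0.68) was the 1 macrophage marker lower at an unadjusted limma p under 0.05 (3.01% of all genes), and 0 were higher (2.38%). Of 10 endothelial markers 7 had a negative change (44.7% of all genes), with a median of -0.16. Flt1 and Esam, 2 of them, had separate groups, lower in CLA glands, as for 2.67% of all genes. Of 10 lymphocyte markers 2 passed the filter.

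Transcripts of white adipocytes were then taken as the reference. The mean log2 signal of 16 adipocyte markers outside the adipokine set was lower by 1.16 in CLA glands, at 11.28 ± 0.16 (SD, n = 3) on control arrays and 10.12 ± 0.52 (SD, n = 4) on CLA arrays. Of the 16, 16 had a negative change (44.7% of all genes tested) and 14 were lower at an unadjusted limma p under 0.05 (3.01% of all genes). Those of smallest p were Cd36, a fatty acid importer, at -1.50, Lpl, lipoprotein lipase, at -0.998, Fabp4, a fatty acid carrier, at -1.30, and the triglyceride enzyme Dgat2 at -1.91. The marker mean was subtracted from each gene on each array and limma was run on the result. Since nearly all genes changed less than fat markers, 85.5% of the genes tested passed, 85.2% as higher relative to them and 0.32% as lower. This count of 10684 genes fell to 103 without control replicate 2 and was 77 within title numbers starting with 28. All genes share the subtracted reference and its error, which a fit that pools spread over genes does not account for, so an exact permutation test of each member is given beside it. That test compared 8 members, is two-sided over 35 splits, and can give no p below 0.0571.

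Retn passed as lower in CLA glands relative to the adipocyte reference. Relative values were -1.21, -0.81 and -0.54 on control and -1.92, -1.37, -2.11 and -1.54 on CLA arrays, on the log2 scale, and the groups did not overlap, as for 0.064% of genes in that direction. The difference was -0.88 ± 0.43 (SE), or 1.85-fold, and passed with a limma adjusted p of 0.0459, near the threshold. The exact permutation p was 0.0571, the smallest that test can give. The call was lost in 10 of 14 alternatives to the limma fit, with adjusted p from 0.00587 to 0.364. It was lost with the title number start as a block, at an adjusted p of 0.0568. With the median of the markers as reference the difference was -0.47.

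Adipoq, Rbp4 and Lep did not pass relative to the reference, at -0.66 ± 0.40, -0.70 ± 0.43 and -0.48 ± 0.53 (SE), with limma adjusted p of 0.110, 0.108 and 0.376. Their 95% intervals, from -1.45 to 0.13 for Adipoq, -1.54 to 0.14 for Rbp4 and -1.51 to 0.56 for Lep, include 0 and also differences of more than 1 log2 unit. These intervals rest on the spread pooled over genes, while relative Lep values had SDs of 1.10 on control and 1.07 on CLA arrays. On CLA replicate 4 the relative Adipoq value was 1.89, above the control values of 1.32 to 1.68, and on the other CLA arrays it was 0.12 to 0.78. With CLA replicate 4 left out Adipoq and Rbp4 passed, at -0.995 and -0.869 with limma adjusted p of 0.0014 and 0.0341. Adipoq was -0.407 without CLA replicate 2 and Rbp4 -0.429 without control replicate 2. With the marker median as reference Adipoq, Rbp4 and Lep were at -0.242, -0.288 and -0.061.

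The other 4 members were higher relative to the reference, like most genes on the array. Apln values were -1.43, -1.86 and -1.12 on control and -0.16, -0.02, -0.94 and -0.38 on CLA arrays, without overlap, where 62.3% of genes were separate in this direction. The Apln difference was 1.10 ± 0.42 (SE; limma adjusted p = 0.0155; exact permutation p = 0.0571). Rarres2 values did not overlap either, with a difference of 0.84 ± 0.42 (SE) that did not pass (limma adjusted p = 0.0565; exact permutation p = 0.0571). Nampt at 0.93 and Agt at 0.95 passed limma with adjusted p of 0.0332 and 0.0379, their groups overlapped, and their exact permutation p were 0.229 and 0.514. Relative Agt values had SDs of 1.97 on control and 0.82 on CLA arrays, beside an SE of 0.44 that rests on the pooled spread. The Apln call was lost when CLA replicate 1 or either of control replicates 1 and 2 was left out, and that of Agt under every single array left out but CLA replicate 2, while of the single arrays left out only CLA replicate 4 kept the Nampt call. The Agt call was also lost with the title number start as a block (limma adjusted p = 0.0805).

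**Figure D4:**
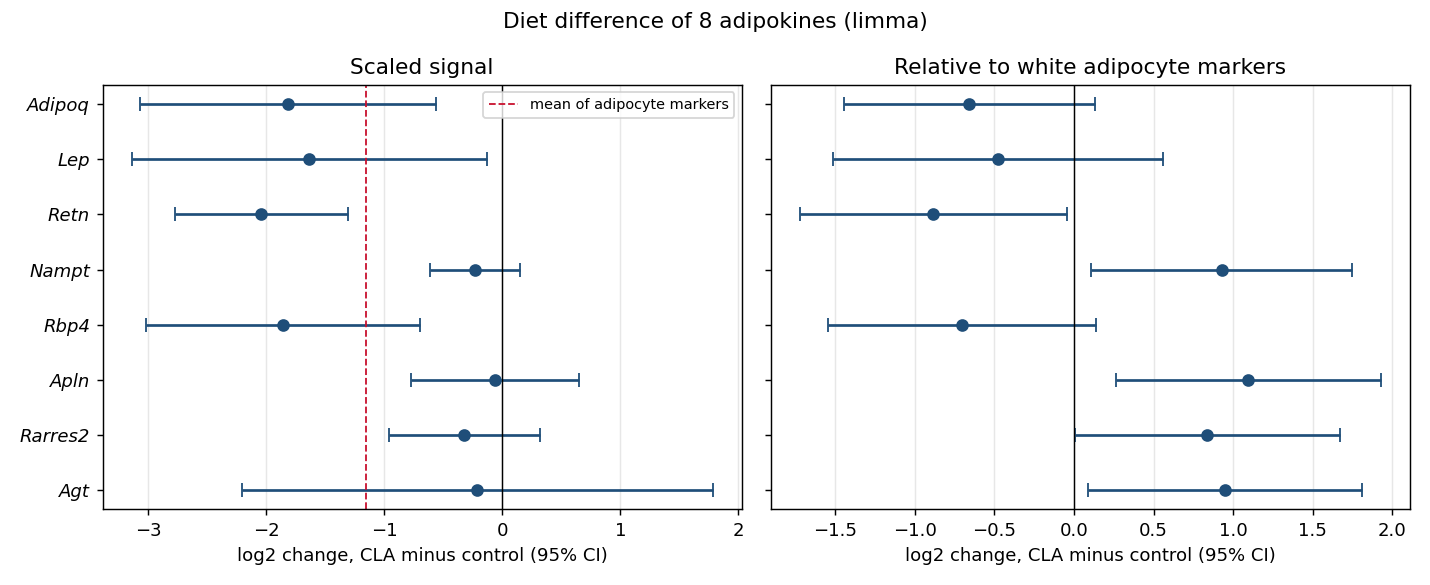
log2 change (CLA minus control) with 95% confidence intervals from limma for 8 adipokine genes, on scaled signal (left; dashed line, mean change of 16 white adipocyte markers, -1.16) and after subtraction of the marker mean (right). On the left Retn, Adipoq, Rbp4 and Lep lie below the dashed line and the other 4 above it.

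None of the adipokine receptors tested passed limma's threshold, where 0% of all genes tested did. Of 17 receptor genes 13 passed the filter, and 0 of 13 had an unadjusted limma p under 0.05 (5.39% of all genes). Their log2 changes ran from -0.41 to 0.50 with a median of -0.08. Those of smallest p were the chemerin-binding receptors Ccrl2 (-0.41 ± 0.20 SE) and Gpr1 (0.50 ± 0.33), the adiponectin receptor Adipor2 (-0.39 ± 0.21) and the complement receptor C3ar1 (0.32 ± 0.24), with limma adjusted p from 0.904 to 0.952. Gpr1 signals on control arrays were 44.4, 57.3 and 47.8, all under the filter signal of 57.7. Gpr1 reached that level only through its CLA arrays, so its positive change is not independent of the filter. Chosen after their values were seen, the leptin receptor Lepr had -0.02 ± 0.35 and the other adiponectin receptor Adipor1 -0.08 ± 0.17.

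Genes that process or work with the adipokines had a negative change in 9 of 12 tested cases, where 44.7% of all genes did, with 1 of 12 lower at an unadjusted limma p under 0.05 (3.01% of all genes). This was Gstk1, which helps to assemble adiponectin multimers, with signals of 950, 854 and 894 on control and 728, 762, 621 and 673 on CLA arrays. The groups were separate, lower in CLA glands, as for 1 of 12 genes of the list and 2.67% of all genes. The change was -0.37 ± 0.15 (SE; limma adjusted p = 0.873). The complement factor gene Cfb had -0.59 ± 0.31, the NAD enzyme gene Nmnat1 -0.45 ± 0.25 and Enpep, an aminopeptidase that cuts angiotensin, -0.57 ± 0.44 (limma adjusted p from 0.915 to 0.957).

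Among other factors that adipocytes secrete, 2 of 11 tested were lower at an unadjusted limma p under 0.05 (3.01% of all genes) and 0 higher (2.38%). Nrg4, a neuregulin of brown fat, read 294, 129 and 102 on control and 65.0, 87.2, 72.1 and 88.2 on CLA arrays, with separate groups and a change of -1.02 ± 0.37 (SE). Groups separated in this direction for 1 of 11 genes of the list and 2.67% of all genes. Angptl4, an inhibitor of lipoprotein lipase, had -0.71 ± 0.26, while Apoe had 0.37 ± 0.20 and the growth factor Igf1 0.38 ± 0.22. The limma adjusted p of these 4 ran from 0.855 to 0.931. The list's median was -0.20.

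Relatives of adiponectin and resistin differed in both directions, from -0.90 to 1.07 with a median of 0.09 over 8 tested genes, of which 3 had a negative change (44.7% of all genes). At an unadjusted limma p under 0.05, 1 was lower (3.01% of all genes) and 0 higher (2.38%). C1qtnf9, a paralog of adiponectin, read 179, 269 and 293 on control and 135, 102, 162 and 124 on CLA arrays, with separate groups and a change of -0.90 ± 0.26 (SE; limma adjusted p of 0.703, unadjusted 0.00689). Groups separated in this direction for 1 of the 8 and 2.67% of all genes. Retnla, a paralog of resistin made by macrophages and stroma, had -0.37 ± 0.25, and the adiponectin paralogs C1qtnf6 and C1qtnf3 had 1.07 ± 0.54 and 0.95 ± 0.72, none past the threshold.

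Of 14 transcription factors and cofactors that act on adipokine genes, 14 were tested, 2 were lower at an unadjusted limma p under 0.05 (3.01% of all genes) and 0 higher (2.38%), and the median change was -0.12. Groups were separate, lower in CLA glands, for 1 of the 14 (2.67% of all genes) and higher for 0 (2.64%). Pparg, the master regulator of fat cell formation, read 414, 357 and 234 on control and 108, 67.0, 92.9 and 249 on CLA arrays. CLA replicate 4 again lay within the control range, and the change was -1.52 ± 0.42 (SE; limma adjusted p of 0.688, unadjusted 0.00523). Mlxipl, the glucose-responsive factor ChREBP, had -1.04 ± 0.32 with a limma adjusted p of 0.703. Cebpa had -0.38 ± 0.22 and Hif1a 0.26 ± 0.14.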

How the data were processed

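Total RNA of 7 mammary glands was hybridised to 1-colour Affymetrix arrays, per the labels' protocols. The submitters' processing notes name MAS5, with no version, and the deposited intensity values are linear signals. Each array's mean with 2% trimmed at each end was 500.003, so no further scaling was applied, and each change is relative to an equal total signal. Signals below 1 were set to 1, and log2 of the deposited signal was analysed.

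Of the probe sets, 34945 had 1 gene symbol, 932 several and 9160 none, and 64 were controls. A symbol was updated through its Entrez identifier for 34741. A gene was represented by its probe set of highest mean log2 signal. The fit took 12497 of 18193 genes, whose mean log2 signal reached the 40th percentile over probe sets (57.7 as a signal).

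The diet difference, CLA minus control, came from lmFit and eBayes with trend in limma 3.58.1 (R 4.3.3). Tests were two-sided with Benjamini-Hochberg adjustment across every gene in the fit. The reference was the mean log2 signal of 16 white adipocyte markers. P-values of the fit on scaled signal measure each gene's spread between these arrays, drawn toward that of other genes. Those of the fit relative to the reference rest on a spread pooled over genes rather than on each gene's own. The members and lists were chosen with earlier results of these data known. Named genes were all members, the 4 of smallest p in each of the 5 lists of related genes, and the 3 of closest profile to each member. Lepr, Adipor1 and the cell type markers named lie outside this rule and were chosen after their values were seen. Alternatives were other normalization, pseudocounts, filters, probe set rules and variance models, title number as a block or alone, the muscle score as a covariate, the marker median, and each array left out. The exact permutation test was added after seeing the data. Figures used matplotlib 3.10.9.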

Additional observations from a re-analysis of the deposited data

Results flagged for a closer look

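In the CLA group, the Lep value relative to the adipocyte reference was -6.21 on replicate 1, against -4.24 to -3.95 on the other 3 CLA arrays. The gap to the nearest array was 0.872 of the group's range, which is above Dixon's 95% limit. Chance gives such a gap in about 1 in 20 groups, and 20 were examined here. The Lep signal on that array, 14.2, was below the filter signal of 57.7.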

How the results depend on the processing

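Under every alternative run, the log2 changes of Retn, Adipoq, Rbp4, Lep and Rarres2 kept their negative sign. The number of genes past limma's threshold was 1 among the arrays numbered from 28 and ran from 0 to 17 with 1 array left out, the 17 being without CLA replicate 4 and 2 without control replicate 1. Relative to the adipocyte reference, 10684 genes passed, 77 within numbers starting with 28, and from 103 (without control replicate 2) to 11800 with 1 array left out. Signs turned for Nampt within numbers starting with 27 (0.085), for Apln with median centring (0.020), and for Agt within numbers starting with 27 (2.09) and with the muscle score (1.20). They also turned for Lep relative to the reference with 64 added (0.20) and for Agt relative to it within numbers starting with 28 (-0.22). With 1 array left out the change of Apln ran from -0.31 to 0.21, that of Agt from -1.19 to 0.76, and relative to the reference that of Lep from -1.09 to 0.054 and of Agt from -0.085 to 1.87. The cause was not tested. With the 60th percentile filter Lep was not tested. Lep and the dimmest probe sets are limited by signal near background. No paired analysis was possible because the titles carry no replicate numbers shared between the diets. Their starts, 27 and 28, are shared, and with the start as a block, among the members, the calls of Retn (-0.92) and Agt (0.849) relative to the reference were lost.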
